A study of Mus musculus with 14 samples.

Results

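The genes described here code for proteins that lie along or bind actin filaments: caldesmon (Cald1), the tropomyosins Tpm1, Tpm2, Tpm3 and Tpm4, the calponins Cnn1, Cnn2 and Cnn3, and the transgelins Tagln and Tagln2. They were chosen by gene name, as 3 related families and caldesmon, and all 10 were found among the 35271 genes of the deposited table. The table holds 14 single cells labelled as mesangial cells, all from 1 wild-type male mouse of 8 weeks. The strain is spelled C56BL/6 in the sample labels and C57BL/6 in the series' design text. Per the labels' protocols, glomeruli held back by magnetic beads were digested to single cells, and a Fluidigm C1 instrument lysed each cell and made its cDNA in a chamber of its own. All cells form 1 group, so no conditions were compared, and cells of 1 mouse are not replicates of a condition. Cells are named by their titles, GL_M followed by a number.

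Tropomyosins are coiled-coil dimers that polymerise along both grooves of the actin filament and control which other proteins, myosin included, can bind it. Caldesmon and calponin bind actin together with tropomyosin and hold back the actin-activated ATPase of myosin II until calmodulin or phosphorylation releases them, while transgelins are small relatives of calponin that cross-link actin. Mesangial cells are the contractile, matrix-producing cells between the capillary loops of the glomerulus, and each of these families has members known from smooth muscle (Cnn1, Tagln) and members known from many cell types (Tpm3, Tpm4, Cnn2, Tagln2).

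Levels are the authors' RPKM, the number of reads on a gene divided by its length and by the cell's total, and detection means an RPKM of 1 or more. The total of reads behind the values, recovered from the steps between them, ran from 6.60 M to 23.8 M per cell with a median of 9.75 M, and 1770 to 5277 genes were detected per cell. Every cell had between 6 and 8 of 9 mesangial markers at an RPKM of 10 or more, with a summed level of 6981 to 23018, and Tbx18 was at 0 throughout. Most cells also held markers of other glomerular cells. All but GL_M_51 had at least 1 endothelial marker at an RPKM of at least 10, with a median of 2.5. The median for podocyte markers was 1. GL_M_30 had 9 of 11 endothelial markers at this level, where the other cells had 0 to 4. GL_M_55 had 5 of 8 podocyte markers, where the others had 0 to 2. In GL_M_85 the leukocyte markers summed to 925, where the next highest cell had 8.27. Of 7 smooth muscle markers, Cnn1 and Tagln among them, 0 or 1 reached an RPKM of at least 10 in each cell, and their summed level was 0 to 109 with a median of 3.35.

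Cald1 was the one gene of the set that was abundant in each cell, Tpm4, Tpm1, Tpm3 and Tagln2 were abundant in some cells and nearly absent from others, Cnn2 was present in a smaller number, Tpm2 and Cnn3 in fewer still, and Cnn1 and Tagln were close to 0 throughout. Of the 10 genes, 9 were detected in some cell, against 29.2% of all genes in the table. An RPKM of at least 10 was reached in some cell by 8 of the 10 (22.3% of all genes) and in at least 7 cells by 5 of the 10, namely Cald1, Tpm1, Tpm3, Tpm4 and Tagln2 (3.08% of all genes). Being detected in all 14 cells was true of Cald1 alone, against 0.454% of all genes, and being above 0 in all 14 of Cald1, Tpm1, Tpm3 and Tpm4 (2.96% of all genes). The members were chosen as families of known contractile proteins, so these shares describe the set beside the table and were not tested.

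**Figure D1:**
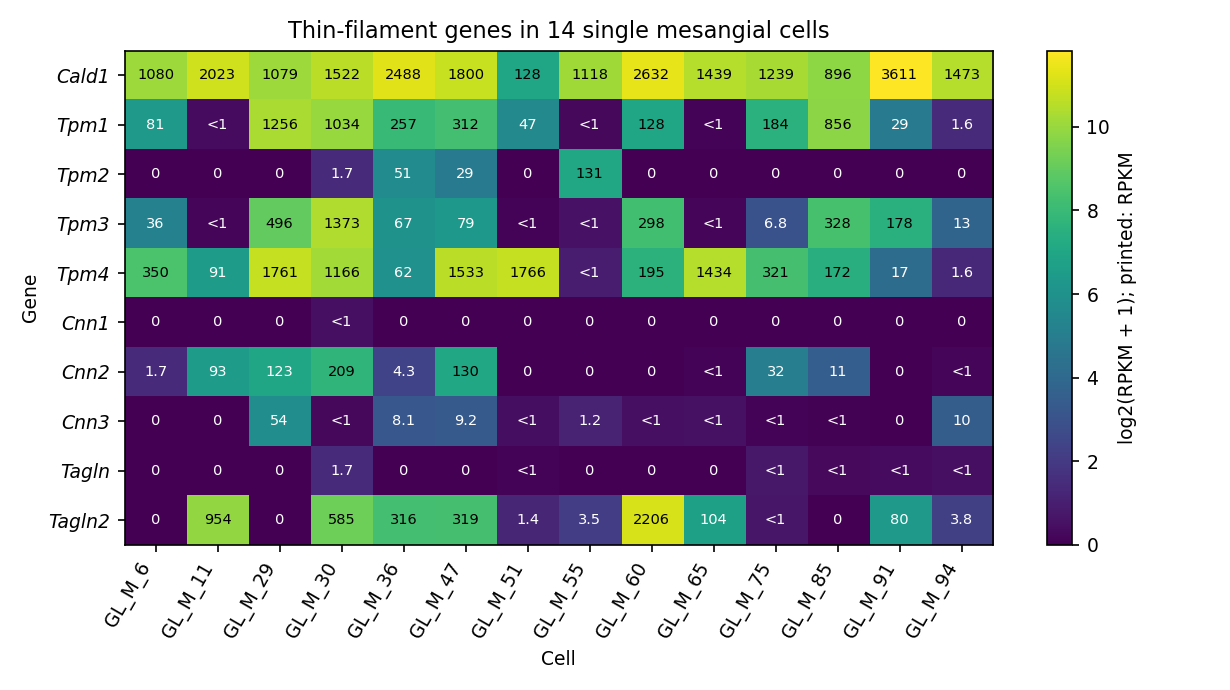
Level of each of the 10 genes (rows) in each of the 14 cells (columns), coloured by log2(RPKM + 1) with the RPKM printed in each box; 0 means that no read was listed and <1 marks an RPKM above 0 and below 1. Cald1 is bright in every column, Cnn1 and Tagln are dark in every column, and the other genes change between bright and dark from cell to cell.

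Cald1 (ENSMUSG00000029761, chr6:34598500-34775473, plus strand, GRCm38) has 18 annotated transcripts. Splicing of this gene gives a long form in smooth muscle and a short form in other cells, which a gene-level RPKM does not tell apart. Its RPKM was 128 in GL_M_51, 896 in GL_M_85, 1079 in GL_M_29, 1080 in GL_M_6, 1118 in GL_M_55, 1239 in GL_M_75 and 1439 in GL_M_65. In the upper part of the range it was 1473 in GL_M_94, 1522 in GL_M_30, 1800 in GL_M_47, 2023 in GL_M_11, 2488 in GL_M_36, 2632 in GL_M_60 and 3611 in GL_M_91. The median was 1456, which placed Cald1 at rank 25 of all genes by median RPKM.

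The cells formed a continuous range except for GL_M_51, which lay far below the next cell. On the log2(RPKM + 1) scale the mean was 10.37 ± 1.12 (SD, n = 14 cells), and the highest cell was 28.3-fold above the lowest. Without GL_M_51 the SD was 0.594 and the fold from lowest to highest was 4.03. GL_M_51 was a deeply sequenced cell, with 19.04 M reads and 1894 genes detected, and it held 7 of 9 mesangial markers at an RPKM of at least 10 and no endothelial marker at that level. It also held 2 of 8 podocyte markers and 1 of 5 fibroblast markers at that level, with sums of 512 and 149, each the second highest of the 14 cells. Whether these markers, its depth or its low number of detected genes bear on its Cald1 level was not tested.

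How narrow this range is depended on the genes it was set beside. On the log2(RPKM + 1) scale, the median SD was 2.30 over the 7976 genes whose mean RPKM was 1 or more, and the median over the 8 members among them was 3.22. Among the 398 genes in the top one of 20 bins of mean level, the SD of Cald1 less the median SD was -1.81. Less the median of the 50 genes nearest to it in mean level the SD was -0.14, and 48% of those genes had a smaller SD. Without GL_M_51 this difference was -0.47, and 6% had a smaller SD. Cald1 was thus steady beside the whole top bin, and near the middle of its closest neighbours unless the 1 low cell was left out.

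The promoters RefSeq gives for Cald1 are printed because this is the gene found in each cell and its transcripts start from more than 1 place; the values do not tell from which start the reads came. The lines hold the 250 bases before each of 2 RefSeq starts (GRCm38.p6, plus strand, chr6:34598254-34598503 and chr6:34709194-34709443), 5′ to 3′. Capitals here and in the sequences further on mark matches, on either strand, to the CArG box (the element that serum response factor binds), to the MCAT element CATTCC (bound by TEAD factors) and to TATAAA.
Cald1 first start: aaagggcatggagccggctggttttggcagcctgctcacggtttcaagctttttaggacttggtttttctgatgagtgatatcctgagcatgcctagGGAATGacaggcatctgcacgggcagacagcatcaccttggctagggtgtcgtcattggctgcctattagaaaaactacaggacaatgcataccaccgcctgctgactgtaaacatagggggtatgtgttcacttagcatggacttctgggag
Cald1 second start: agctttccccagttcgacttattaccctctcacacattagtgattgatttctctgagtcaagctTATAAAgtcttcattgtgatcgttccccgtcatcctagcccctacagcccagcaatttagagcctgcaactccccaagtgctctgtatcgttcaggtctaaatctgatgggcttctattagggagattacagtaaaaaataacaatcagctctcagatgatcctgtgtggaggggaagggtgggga
Counted back from the start, with the base before it as -1, the first holds an MCAT match on the other strand at -153 to -148 and the second holds TATAAA at -186 to -181. No CArG match lies in either. A match is a run of letters, not a binding site, and a window without one says nothing about the factor.

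Cald1 was set against the main actin and myosin transcripts of the same cells, since a ratio within a cell does not depend on how that cell was scaled. Beta-actin (Actb) had an RPKM of 14208 to 34125, with a median of 24899. Of the 31-base stretches in its exons, 23.6% also occur in other genes, and what this does to its level was not tested. Cald1 came to 0.536% of Actb in GL_M_51 and to between 3.09% and 18.99% in the other cells, with a median of 6.07% over all cells. Against Myh9, the heavy chain of non-muscle myosin II (701 to 1571, median 866), the RPKM ratio of Cald1 ran from 0.130 in GL_M_51 to 4.70 in GL_M_91, with a median of 1.78. Actb and Myh9 varied little between cells, with an SD of 0.328 and 0.350 on the log2(RPKM + 1) scale where Cald1 had 1.12. Over the 14 cells Cald1 had Pearson's r of -0.01 and Spearman's rho of 0.31 against log2 reads. Against log2 genes detected these were 0.24 and 0.07. The value for reads includes GL_M_51, with the lowest Cald1 and 19.04 M reads. The cells with the highest Cald1, GL_M_91 and GL_M_60, also had many reads, 17.7 M and 23.8 M. What part depth has in the level of Cald1 was not tested.

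Of the tropomyosins, Tpm4 was the highest gene by median and the most widely detected. Tpm4 (ENSMUSG00000031799, chr8:72134975-72153142, plus strand) codes for a tropomyosin of non-muscle cells and was detected in 13 of 14 cells. In GL_M_51, GL_M_29, GL_M_47, GL_M_65 and GL_M_30 its RPKM was 1766, 1761, 1533, 1434 and 1166. In GL_M_6, GL_M_75, GL_M_60 and GL_M_85 it was 350, 321, 195 and 172. Below these came GL_M_11 at 91.3, GL_M_36 at 61.5, GL_M_91 at 17.1, GL_M_94 at 1.57 and GL_M_55 at 0.953. The 5 highest cells, all at 1166 or more, lay apart from the next at 350, and the 2 lowest, with 15 and 9 reads, held almost none. The median was 258. Of the 31-base stretches in its exons, 19.97% also occur in other genes, most of them in Gm7809, which was at 0 in every cell. That 0 does not tell whether the sharing changed the level of Tpm4, which was not tested.

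Tpm1 (ENSMUSG00000032366, chr9:67022590-67049406, minus strand) codes for tropomyosins of muscle and other cells in many spliced forms, with 21 annotated transcripts. Its RPKM was 1256 in GL_M_29, 1034 in GL_M_30, 856 in GL_M_85, 312 in GL_M_47, 257 in GL_M_36, 184 in GL_M_75 and 128 in GL_M_60. It was 81.0 in GL_M_6, 47 in GL_M_51, 29 in GL_M_91 and 1.63 in GL_M_94. The remaining cells, GL_M_11, GL_M_55 and GL_M_65, had 3, 2 and 1 reads, an RPKM of 0.260, 0.183 and 0.0807. The gene was thus at an RPKM of at least 10 in 10 cells and at 18 reads or fewer in the others, with a median of 104.

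Tpm3 (ENSMUSG00000027940, chr3:90072649-90100902, plus strand), a tropomyosin of slow muscle and of most non-muscle cells, was detected in 10 cells and had a median of 51.3. Its RPKM was 1373 in GL_M_30, 496 in GL_M_29, 328 in GL_M_85, 298 in GL_M_60 and 178 in GL_M_91, and 79.0 in GL_M_47, 66.5 in GL_M_36, 36.1 in GL_M_6 and 12.8 in GL_M_94. It was 6.82 in GL_M_75, and GL_M_55, GL_M_11, GL_M_65 and GL_M_51 had 4, 1, 1 and 2 reads. Of the 31-base stretches in its exons, 27.0% also occur in other genes, nearly all in Tpm3-rs7, which the table lists at no more than 0.462 in any cell. Whether the sharing changed the level of Tpm3 was likewise not tested.

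Tpm2 (ENSMUSG00000028464, chr4:43514711-43523765, minus strand), known from striated and smooth muscle, was at 0 in 10 cells. It was detected in GL_M_55 at 131, in GL_M_36 at 50.6, in GL_M_47 at 28.6 and in GL_M_30 at 1.71. These 4 of 14 cells are 28.6% (exact Clopper-Pearson 95% interval 8.39% to 58.1%, covering the sampling of cells of 1 mouse). The highest of them, GL_M_55, is the cell with 5 of 8 podocyte markers at an RPKM of at least 10, and their part in its Tpm2 level was not tested.

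Mean levels on the log2(RPKM + 1) scale were 7.40 ± 3.32 for Tpm4, 5.70 ± 3.75 for Tpm1 and 4.92 ± 3.63 for Tpm3 (SD, n = 14 cells), so the 3 means lay closer to each other than the SD of any of them. A pseudocount of 1 compresses differences below an RPKM of about 1. The shares of cells with detection had wide intervals: 92.9% for Tpm4 (66.1% to 99.8%), 78.6% for Tpm1 (49.2% to 95.3%) and 71.4% for Tpm3 (41.9% to 91.6%), exact Clopper-Pearson at 95%.

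Which tropomyosin a cell held most of changed from cell to cell. As a share of the summed RPKM of Tpm1 to Tpm4, Tpm4 averaged 48.0% ± 37.1, Tpm3 22.4% ± 28.5, Tpm1 21.6% ± 20.7 and Tpm2 7.99% ± 26.3 (SD, n = 14 cells). Tpm4 was the largest in 7 cells, Tpm3 in 4, Tpm1 in 2 and Tpm2 in 1. In 4 cells a single gene made up more than 90% of the sum. Tpm4 did so in GL_M_65 (99.99%), GL_M_11 (99.6%) and GL_M_51 (97.4%), and Tpm2 in GL_M_55 (98.8%).

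The other cells were mixed. Tpm3 led with 80.0% in GL_M_94, 79.4% in GL_M_91, 48.0% in GL_M_60 and 38.4% in GL_M_30, and Tpm1 led with 63.2% in GL_M_85 and 59.0% in GL_M_36. At least 2 tropomyosins were at an RPKM of at least 10 in 10 cells and at least 3 in 8 cells, while GL_M_11, GL_M_55, GL_M_65 and GL_M_94 had 1. Each of the 14 cells had at least 1 at this level. The mean share of Tpm2 rests on GL_M_55: without that cell it was 1.01%.

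**Figure D2:**
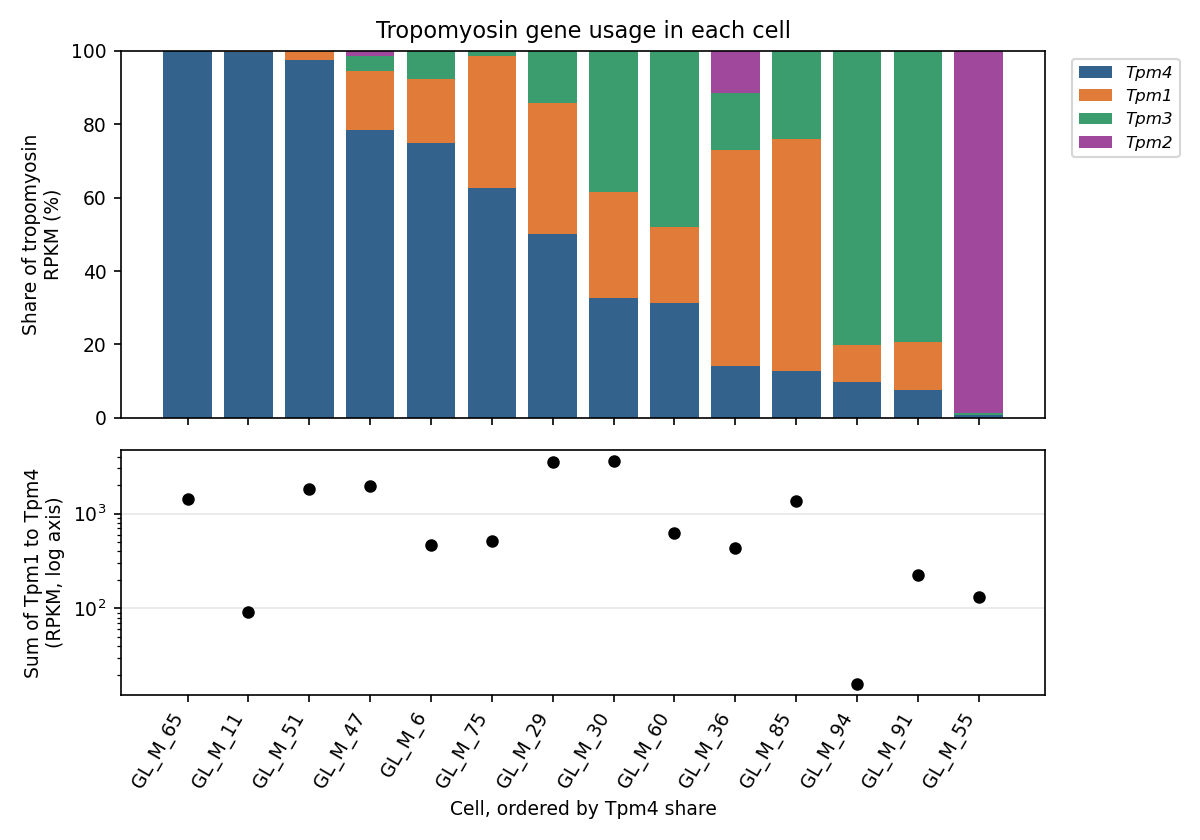
Share of Tpm1 to Tpm4 in the summed tropomyosin RPKM of each cell (upper bars, percent) and that sum (lower points, RPKM on a log axis), with the 14 cells ordered by the share of Tpm4. The leading gene passes from Tpm4 on the left to Tpm2 in GL_M_55 on the right, and the sum, 16.0 to 3575, follows no such order.

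The summed tropomyosin RPKM had a median of 566 and ran from 16.0 in GL_M_94 to 3575 in GL_M_30. The lowest cells after GL_M_94 were GL_M_11 at 91.7, GL_M_55 at 133 and GL_M_91 at 224, and the highest after GL_M_30 was GL_M_29 at 3513. Relative to Actb in the same cell, the sum ran from 0.0592% in GL_M_94 to 14.5% in GL_M_30, with a median of 3.02%. GL_M_30, the cell with most endothelial markers, was also highest in Tpm3 and in the calponin sum, and whether RNA of another cell type adds to these values was not tested. Cald1 was above the tropomyosin sum in 9 of 14 cells and below it in GL_M_29, GL_M_30, GL_M_47, GL_M_51 and GL_M_85. The 2 measures were thus not proportional: the cell with the lowest Cald1 (GL_M_51) had a tropomyosin sum of 1813, and the cell with the lowest tropomyosin sum (GL_M_94) had a Cald1 of 1473.

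**Figure D3:**
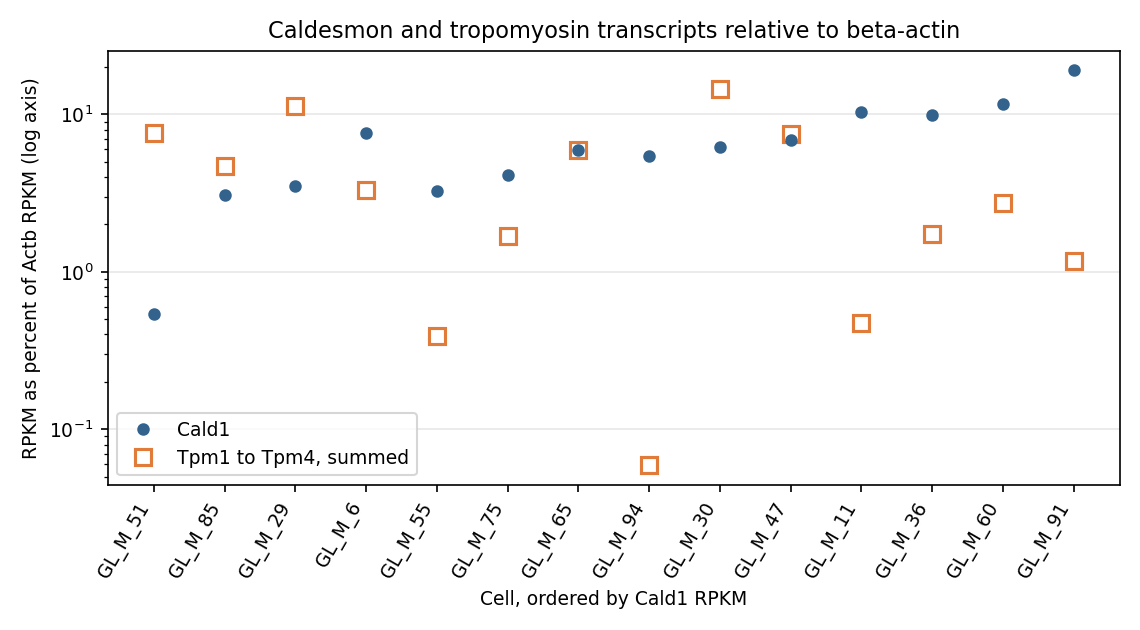
RPKM of Cald1 (filled circles) and of Tpm1 to Tpm4 summed (open squares) as percent of the Actb RPKM in each of 14 cells, on a log axis, with cells ordered by the RPKM of Cald1. The squares cover 0.0592% to 14.5% and the circles 0.536% to 18.99%, with 13 of the 14 circles at 3.09% or above.

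Levels of different genes can be compared only per length, and the lengths used by the authors matter here. Worked out from the read steps, they came to 1932 bases for Cald1, 1244 for Tpm4, 1438 for Tpm1 and 1066 for Tpm3, where the longest annotated transcripts have 4777, 2128, 2890 and 2374. Divided by the longest transcript, an alternative added after seeing the data, the median of Cald1 was 589, that of Tpm4 151, that of Tpm1 52.0, that of Tagln2 29.99 and that of Tpm3 23.0. The order of the medians stayed the same but for Tpm3 and Tagln2, which were 51.3 and 41.9 with the authors' lengths. Cald1 was above Tpm4 in 12 cells with the authors' lengths and in 9 with the longest transcript, and above the tropomyosin sum in 9 and 8. Tpm4 was the largest tropomyosin in 7 and 8 cells. The ranges over cells of each gene and the next in this order overlapped.

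Tpm1 and Tpm3 went up and down in the same cells. Over the 14 cells Pearson's r of their log2(RPKM + 1) was 0.81, the highest r of the 15 pairs among the 6 members detected in at least 7 cells, and Spearman's rho was 0.79, below the 0.81 of Cald1 and Tagln2. Both were at an RPKM of at least 10 in 8 cells and neither was in 3. The exceptions were GL_M_51 and GL_M_75, with Tpm1 at 47 and 184 and Tpm3 at 0.0986 and 6.82, and GL_M_94, with Tpm3 at 12.8 and Tpm1 at 1.63. With 1 cell left out at a time r stayed between 0.77 and 0.87. Cells of 1 mouse share their source, and each cell's genes share its library, so these coefficients are given as descriptions with no p-value.

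By Pearson's r the other pairs were weaker. Tpm1 and Tpm4 had r = 0.53 and rho = 0.42, and with 1 cell left out r ran from 0.39 (without GL_M_55) to 0.74 (without GL_M_65). Tpm3 and Tpm4 had r = 0.20. Cald1 had r = -0.05 with Tpm1, 0.38 with Tpm3 and -0.33 with Tpm4, and the last of these was -0.16 without GL_M_51. Over the 15 pairs the median r was 0.20, and 12 were positive. The highest value for Cald1 was with Tagln2, at r = 0.58 and rho = 0.81.

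**Figure D4:**
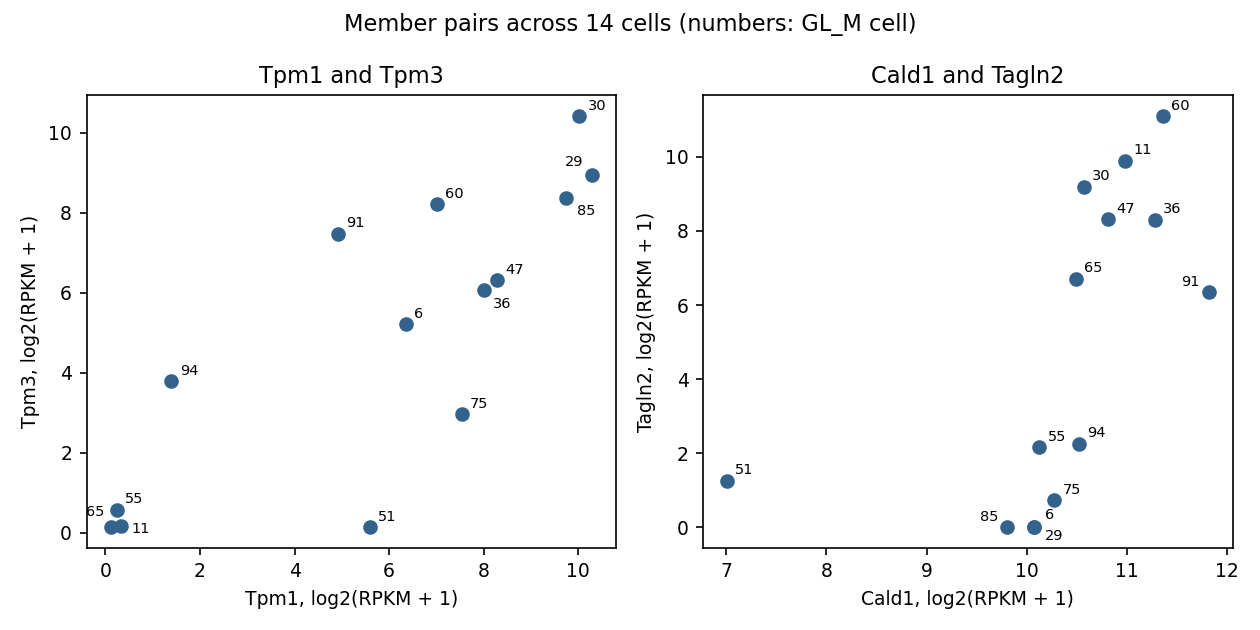
Tpm3 against Tpm1 (left) and Tagln2 against Cald1 (right), each point 1 of 14 cells labelled with its number, on log2(RPKM + 1) axes. On the left GL_M_51 and GL_M_75 fall below the run of points, and on the right the cells with most Tagln2 lie at a Cald1 RPKM of 1439 or more.

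The promoters of Tpm1 and Tpm3 are printed because these were the pair with the highest Pearson's r. They are the 250 bases before the RefSeq start of Tpm1 (chr9:67049214-67049463, minus strand) and before both RefSeq starts of Tpm3 (chr3:90072401-90072650 and chr3:90079271-90079520, plus strand), in GRCm38.p6 and in the direction of the gene.
Tpm1: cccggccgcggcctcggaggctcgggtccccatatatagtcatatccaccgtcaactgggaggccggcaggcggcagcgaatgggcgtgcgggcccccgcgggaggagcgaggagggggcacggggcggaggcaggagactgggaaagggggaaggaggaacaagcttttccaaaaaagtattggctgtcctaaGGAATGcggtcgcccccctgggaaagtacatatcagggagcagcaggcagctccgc
Tpm3 first start: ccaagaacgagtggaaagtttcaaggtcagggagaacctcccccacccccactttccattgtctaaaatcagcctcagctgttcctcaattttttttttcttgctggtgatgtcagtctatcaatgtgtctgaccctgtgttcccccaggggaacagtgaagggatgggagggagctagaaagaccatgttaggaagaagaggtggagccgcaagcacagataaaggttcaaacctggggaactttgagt
Tpm3 second start: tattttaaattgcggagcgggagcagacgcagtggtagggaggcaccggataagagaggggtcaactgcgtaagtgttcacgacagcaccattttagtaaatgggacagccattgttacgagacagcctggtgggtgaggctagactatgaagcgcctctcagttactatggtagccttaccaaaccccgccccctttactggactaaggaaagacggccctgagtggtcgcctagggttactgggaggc
Tpm1 has an MCAT match on the other strand at -56 to -51, and neither Tpm3 window has a CArG, MCAT or TATAAA match. Each of Tpm1 and the second Tpm3 start has 1 GC box, GGGCGG on either strand, an element bound by SP1 that is not capitalised here.

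Calponins were the least of the families in reads. Cnn1 (ENSMUSG00000001349, chr9:22099216-22109630, plus strand), the calponin of differentiated smooth muscle, was listed above 0 in GL_M_30 alone, at an RPKM of 0.398, which is 3 reads or a multiple of 3. Its 0 of 14 cells with detection allow a share of up to 23.2% by the exact Clopper-Pearson interval. Myh11, the smooth muscle myosin heavy chain, was also below an RPKM of 1 in all cells, and its highest value was 0.225 in the same GL_M_30.

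Cnn2 (ENSMUSG00000004665, chr10:79988584-79996062, plus strand), the calponin of many non-muscle cells, was detected in 8 of 14 cells. Its RPKM was 209 in GL_M_30, 130 in GL_M_47, 123 in GL_M_29 and 92.7 in GL_M_11. Lower values were 31.9 in GL_M_75, 10.5 in GL_M_85, 4.27 in GL_M_36 and 1.68 in GL_M_6, and the other 6 cells had 2 reads or fewer. Among the 6 members detected in at least 7 cells, Cnn2 was the one most related to the number of genes detected, with r = 0.49 and rho = 0.65 against its log2, and what part that number has in the values was not tested.

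Cnn3 (ENSMUSG00000053931, chr3:121426497-121458207, plus strand), the acidic calponin of brain and other tissues, was detected in 5 cells. It was at 54.3 in GL_M_29, 10.3 in GL_M_94, 9.21 in GL_M_47, 8.11 in GL_M_36 and 1.18 in GL_M_55. Reads that could belong elsewhere are a limit here, since 32.0% of its 31-base stretches also occur in other annotated genes and 17.7% of its exon bases overlap Gm42928 on the opposite strand. The sharing genes, Gm42928, Gm4815 and Gm17936, were not found in the deposited table. What the sharing does to the level of Cnn3 was not tested.

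The calponin sum had a median of 10.5 and no calponin reached an RPKM of at least 10 in 7 cells. Of the 13 cells with any calponin read, Cnn2 was the largest in 7 and Cnn3 in 6, and in 10 of them a single gene made up more than 90% of the sum. Some of the cells led by Cnn3 held almost no calponin, with a sum of 0.367 in GL_M_51, 0.398 in GL_M_60 and 0.532 in GL_M_65. Of the calponin RPKM summed over all cells, Cnn2 made up 87.6% and Cnn3 12.3%, where the mean shares over the 13 cells were 54.7% ± 46.4 and 45.3% ± 46.4 (SD, n = 13 cells). GL_M_29 was the one cell with both Cnn2 and Cnn3 at an RPKM of at least 10.

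The promoters of Cnn1 and Cnn2 are printed as the pair within a family in which one gene was close to 0 and the other was present (GRCm38.p6, plus strand, chr9:22099003-22099252 and chr10:79988350-79988599).
Cnn1: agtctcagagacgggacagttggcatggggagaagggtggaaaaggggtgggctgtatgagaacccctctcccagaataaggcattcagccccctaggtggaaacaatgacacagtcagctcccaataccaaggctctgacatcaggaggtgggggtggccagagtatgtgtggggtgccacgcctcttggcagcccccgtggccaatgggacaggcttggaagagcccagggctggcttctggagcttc
Cnn2: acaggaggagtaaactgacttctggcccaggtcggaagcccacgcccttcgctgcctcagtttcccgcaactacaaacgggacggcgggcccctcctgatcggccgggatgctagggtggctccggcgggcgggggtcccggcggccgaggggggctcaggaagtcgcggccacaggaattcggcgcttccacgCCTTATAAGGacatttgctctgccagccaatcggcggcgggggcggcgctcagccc
Cnn2 carries the single CArG match of the set, CCTTATAAGG at -56 to -47, and the Cnn1 window has no match to any of the 3 capitalised motifs. RefSeq windows from 250 bases before to 50 after the start were matched for 9 of the 10 members, with 11 windows in all, Tagln being the member without one. A CArG match was in 1 of these 11 and in 1.63% of 32851 such windows of all genes, and MCAT was in 3 of 11 and in 14.7%. TATAAA was in 1 of 11 and 13.6%, and the GC box in 8 of 11 and 35.7%. All were searched on both strands, and no printed match overlaps another.

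The transgelins split as sharply as the calponins. Tagln (ENSMUSG00000032085, chr9:45929619-45936058, minus strand), also called SM22-alpha and an early marker of smooth muscle, was detected in 1 of 14 cells, GL_M_30, at 1.68 or 34 reads. In the others it was at most 0.669 (7 reads, GL_M_75), and it was at 0 in 8 cells. Of its exon bases, 67.9% overlap genes on the opposite strand, Gm48529 and Pcsk7, and no source used here states whether strand was used in the counting. Pcsk7 was at 304 in GL_M_11, where Tagln was at 0.

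Tagln2 (ENSMUSG00000026547, chr1:172500047-172507380, plus strand), the widely expressed transgelin, was detected in 10 cells and had the largest SD of the set on the log2(RPKM + 1) scale, 4.18. Its RPKM was 2206 in GL_M_60, 954 in GL_M_11, 585 in GL_M_30, 319 in GL_M_47, 316 in GL_M_36, 104 in GL_M_65 and 80.1 in GL_M_91. The other 7 cells lay below 4: 3.79 in GL_M_94, 3.48 in GL_M_55, 1.39 in GL_M_51, 0.668 in GL_M_75, and 0 in GL_M_6, GL_M_29 and GL_M_85. No cell lay between 3.79 and 80.1. Its SD of log2(RPKM + 1) was 0.64 above the median of its bin of mean level and 0.77 above that of the 50 genes nearest in mean level, 90% of which had a smaller SD.

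The 7 cells with Tagln2 at an RPKM of at least 10 had a Cald1 of 1439 or more, and of the 7 others GL_M_94 alone, at 1473, was in that range. Rank order thus tied the genes more closely (rho = 0.81) than level did (r = 0.58). Without GL_M_51, r was 0.76. Against log2 reads Tagln2 had r = 0.47 and rho = 0.36, the highest such r of the 6 members detected in at least 7 cells. What part depth has in the tie of Cald1 and Tagln2 was not tested. Tagln2 made up more than 90% of the transgelin sum in 10 of the 12 cells with any transgelin read, and the third relative, Tagln3 of neurons, was at 0 in all 14.

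Tpm1, Tpm4 and Tagln2 each had a gap in reads between low and high cells. No cell lay between 18 and 740 reads for Tpm1, 15 and 377 for Tpm4, or 33 and 1018 for Tagln2. Tpm3 was more graded, with 4 reads in GL_M_55, 48 in GL_M_75, 105 in GL_M_94 and 311 in GL_M_6. Of the 98 values of the 7 members with a mean RPKM of at least 10, 45.9% were at 100 or above, 16.3% between 10 and 100, 9.18% between 1 and 10, and 28.6% below 1. These 7 include Cald1, which gave 14 of the 45 values at 100 or above. The 5008 genes of the table with such a mean had 18.5%, 12.8%, 9.87% and 58.9% in these ranges. Few values between 1 and 10 were thus found for genes in general, and the share of the members there was close to theirs. In 11 cases a member that peaked at 100 or above was listed above 0 and below 1 in another cell. Those values were a median of 0.0207% of the gene's highest cell, never more than 0.0735%, and stood on a median of 2 reads and at most 9. At such numbers a gene is not clearly present: for a transcript of 1 kb, an RPKM of 0.126 in the deepest cell and of 0.455 in the shallowest stands for 3 reads. Because the cDNA is amplified and the labels name no molecular identifiers, these limits cover counting error only, and a 0 in a cell may be a transcript that was missed.

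The number of members at an RPKM of at least 10 was 2 in GL_M_55, 3 in GL_M_51, GL_M_65 and GL_M_94, 4 in GL_M_6, GL_M_11 and GL_M_75, 5 in GL_M_60, GL_M_85 and GL_M_91, 6 in GL_M_29, GL_M_30 and GL_M_36, and 7 in GL_M_47. GL_M_36 and GL_M_47 were also the cells with most genes detected, 5277 and 4842. Over the 14 cells r with log2 genes detected was 0.43 and rho 0.33, and what share of the count that number carries was not tested.

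The remaining proteins of the actin filament and its contraction gave a frame for these levels. Of 49 further genes in 7 lists, 33 were detected in some cell, 10 in every cell, and 23 reached an RPKM of at least 10 in at least 7 cells. Myosin II was the most complete list, with 5 of 8 genes detected in every cell, led by the regulatory light chain Myl9 (median 943), Myh9 (866) and the essential light chain Myl6 (647). Of the actins, 4 of 6 were detected in some cell. Gamma-actin Actg1 had a median of 74.2, but 40.2% of its 31-base stretches also occur in other genes, and what this does to its level was not tested. The smooth muscle actins Acta2 and Actg2 were at most 1.15 and 1.20, both in GL_M_30.

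Of 15 kinases, phosphatases and calmodulins that act on caldesmon, calponin or myosin light chain, 13 were detected in some cell and 4 in every cell. Myosin light chain kinase Mylk had a median of 537 and the calmodulin gene Calm2 one of 325. Of the tropomodulins and leiomodins, which cap or nucleate tropomyosin-coated filaments, 1 of 7 was detected: Tmod3, with a median of 42.0 and a range of 0.0302 to 495. Lmod1, the leiomodin of smooth muscle, was at 0 in all cells. Among other actin-binding genes 7 of 8 were detected, with Actn4 (242), Flna (70.4) and Lpp (39.2) the highest by median.

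Serum response factor and its coactivators are known to drive smooth muscle genes, Cnn1 and Tagln among them. Srf and Myocd were at 0 in all cells, Mrtfb reached an RPKM of at least 10 in 3 cells with a highest value of 133, and Mrtfa was at most 3.39. Transcripts of regulators are often few, and at this depth a 0 does not show that they were absent.

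For the members detected in at least 10 cells, the 3 genes with the highest Pearson's r were taken among 1636 genes whose mean RPKM was 10 or more and that were detected in at least 7 cells. Nearest to Cald1 were Igfbp7 (r = 0.83), Ets1 (0.82) and Col4a1 (0.81), with rho of 0.35, 0.70 and 0.39. Each was at an RPKM of at least 10 in 13 cells, with a lowest value of 3.56, 0.863 and 0.317. Whether these r rest on GL_M_51, the lowest cell of Cald1, was not tested. For Tpm1 they were Tcf4 (0.83), Tpm3 (0.81) and Marcks (0.80), and for Tpm3 Marcks (0.91), Sf3b6 (0.85) and Tpm1 (0.81). For Tpm4 they were Msn (0.76), Dnajc8 (0.74) and Cox4i1 (0.73), and for Tagln2 Crebl2 (0.89), Tmem38b (0.85) and Cct6a (0.85). Each is the top of a search through many genes over 14 cells, and these are descriptions: 4 of the 15 remained when Spearman's rho took the place of r, and 8 without GL_M_30 and GL_M_55.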

How the data were processed

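The genes were chosen by family, and the gene lists, markers and tests were chosen with earlier results of these data known. Values are RPKM made by the authors and deposited as 1 table of 14 cells. The submitters' processing notes name TopHat2 2.0.12, HTSeq 0.6.1 and the build mm10. No source used here states the annotation release, the read length or a filter on cells. Of the 35271 Ensembl genes, 34488 matched a GENCODE M21 symbol on GRCm38, the assembly that mm10 denotes.

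From the RPKM steps, each cell's read total was recovered. At genes with 1 annotated transcript, 84.7% to 89.7% of the low values were within 0.02 reads of a whole number. The length the authors divided by was taken as the smallest whole number that made all of a gene's reads whole within 0.001. Over 7776 genes with several transcripts, the mean transcript length made 54.2% of the values whole, the longest transcript 13.1% and the union of exons 5.72%. Both steps were tested on simulated data, where 14 of 14 totals and 200 of 200 lengths came back. Among the 91 pairs of cells none shared a nonzero value. Since RPKM is divided by each cell's own total, this cannot tell whether a library was sequenced again. Pearson's r of log2(RPKM + 1) between cells was 0.36 to 0.62. Each cell was counted as a library of its own.

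Levels are RPKM or log2(RPKM + 1). The table has counts of cells, medians, SDs over cells, shares within a family and correlations, computed with Python 3.11.15, pandas 2.3.3 and scipy 1.17.1. With 1 mouse and 1 group, no p-value or standard error was computed and no genes were tested for change. A mean with its SD is given for genes above 0 in every cell (2.96% of all genes, and 4 of the members) and for ratios. Named genes were the members, the 3 genes of each list with the highest median, smooth muscle isoforms that were near 0, genes sharing exon bases or sequence with a member, and the 3 genes most alike to each widely detected member, leaving out mitochondrial, ribosomal protein and predicted genes. One gene that this rule names is not reported here. Promoter windows are those of RefSeq on GRCm38.p6. Alternatives were the pseudocount, the detection level, leaving out cells, Spearman's rho in place of Pearson's r, and, added after seeing the data, division by the longest transcript and the 50 genes nearest in mean level.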

Additional observations from a re-analysis of the deposited data

How the results depend on the processing

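Of 216 values computed under other settings, 171 were within 1.5 times of the main value, 45 were not, and 5 changed sign. Of 462 values with 1 cell left out, 452 were within 1.5 times and 0 changed sign. The sign changes lay in the SD less the median of genes of like level, where it was close to 0: for Tpm2 (-0.03) it was 0.28 with a pseudocount of 0.1, 0.07 without GL_M_30 and GL_M_55 and 0.01 with the 50 nearest genes, for Tpm3 (0.09) it was -0.20 without GL_M_30 and GL_M_55, and for Cnn2 (-0.21) it was 0.05 with a pseudocount of 0.1. For Tpm4 it was 0.07 to 0.70 over the settings, against 0.39. The mean share of Tpm2 was 1.01% without GL_M_55, 1.09% without GL_M_30 and GL_M_55 and 1.31% for RPKM summed over cells, against 7.99%, and summing likewise moved Cnn2 from 54.7% to 87.6% and Cnn3 from 45.3% to 12.3%. With 1 cell left out the median r over pairs ran from 0.12 (without GL_M_55) to 0.31 (without GL_M_11), against 0.20. Without GL_M_30 and GL_M_55 it was 0.11. Cells with Tagln numbered 2 at an RPKM of at least 0.5, 0 at 5, 5 at 3 reads or more, 6 above 0 and 0 without GL_M_30 and GL_M_55, against 1, and 0 to 1 with 1 cell left out (0 without GL_M_30). Cells with Cnn3 numbered 9 at 3 reads or more, 11 above 0 and 3 without GL_M_36 and GL_M_47, against 5. Cells with Cnn1 numbered 1 at 3 reads or more and 1 above 0, against 0, and cells with Tpm2 numbered 2 without GL_M_30 and GL_M_55 and 2 without GL_M_36 and GL_M_47, against 4. Members detected in every cell numbered 2 at an RPKM of at least 0.5, 2 at 3 reads or more, 4 above 0 and 2 without GL_M_30 and GL_M_55, against 1, and 1 to 2 with 1 cell left out (2 without GL_M_55). Of the genes of the contraction lists, 5 were in every cell at an RPKM of at least 5 and 23 above 0, against 10 at the main level. The SD of Cald1 less the median of genes of like level was -0.14 with the 50 nearest genes, against -1.81, and the SD itself ran from 0.594 (without GL_M_51) to 1.17 with 1 cell left out. Of the 15 most alike genes, 4 stayed with Spearman's rho and 8 without GL_M_30 and GL_M_55. For Tpm1 and Tpm4, r ran from 0.39 (without GL_M_55) to 0.74 (without GL_M_65) with 1 cell left out. It was 0.34 without GL_M_30 and GL_M_55, against 0.53. The cells left out and the detection level set the counts of cells by construction, and the cause of the other moves was not tested. No paired analysis was possible because all cells form 1 group. With 14 cells of 1 mouse, depth of 6.60 M to 23.8 M reads and amplified cDNA, values of a few reads do not separate absence from a missed transcript.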

Other observations

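Cells that stood out in the genes described above were looked up in the contraction lists after their values were seen, and these are values with no test. GL_M_94, the cell with the least tropomyosin, had the highest level of several genes of the contraction machinery: the RPKM of the myosin regulatory light chain Myl12a was 2255 (median over the 14 cells 611), of the GTPase Rhoa 1244 (median 172) and of the phosphatase subunit Ppp1cb 759 (median 198). This was not particular to GL_M_94. GL_M_60 was highest in Myh10, Myl6, Myl12b, Prkca and Flna, and GL_M_65 in Myl9, Mapk3, Pak2 and Actn4. Of the 31-base stretches of Myl12a, Rhoa and Ppp1cb, 22.9%, 10.8% and 17.3% also occur in other genes. What this does to their levels was not tested. GL_M_51, the cell with the least Cald1, had the highest RPKM of Tpm4 and of Tmod3, which caps tropomyosin-coated filaments, at 1766 and 495. Of the tropomyosin RPKM summed over all cells, Tpm4 made up 54.9%, Tpm1 25.9%, Tpm3 17.8% and Tpm2 1.31%, an order in which Tpm1 stood above Tpm3, where the mean share over cells was 21.6% for Tpm1 and 22.4% for Tpm3.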
